A study of Mus musculus with 2 samples.

Results

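Claudins are the membrane proteins of the tight junction that decide which ions and how much water pass between epithelial cells, and the 10 claudin genes described here are a set chosen as claudins of the kidney tubules, Cldn2, Cldn3, Cldn4, Cldn7, Cldn8, Cldn10, Cldn11, Cldn14, Cldn16 and Cldn19. They were found by symbol among the gene probes of the arrays, which gave 12 probes of 39429 in all, and 10 gene names of 31829. Cldn10 is listed on the arrays under its older name Cldn10a and was matched through its transcript record, so 11 probes of 9 genes carried the listed symbol itself.

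The RNA came from kidneys of 2-month-old mice. The knockout kidneys were from Cnnm2fl/fl;Six2-Cre mice and the control kidneys from Cnnm2+/+;Six2-Cre mice, so both groups carried the Cre transgene and mice without it are not analysed here. Six2 is active in the progenitor cells of the nephron before birth, and Cre made there deletes the floxed gene in the cells that descend from them. CNNM2 is a membrane protein of the distal tubule that takes part in magnesium handling. The RNA is that of mixed kidney cells, so in every value below fewer cells of a type and less RNA per cell cannot be told apart.

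Each of the 2 arrays compared both genotypes in 2 colours, and the dyes were exchanged between them. On array 1 the knockout was labelled with Cy5 and the control with Cy3, and on array 2 the control carried Cy5 and the knockout Cy3. With the arrays counted as 1 replicate per genotype, the genotypes were compared without a test, and every SD below is the SD of the 2 arrays, which covers labelling and hybridization, and the spread between mice only if the arrays carried different RNA, which the sources used here do not state. Cnnm2 itself was lower in the knockout, at a log2 ratio of -2.88 on one array and -2.46 on the other. The log2 ratios of the arrays, both turned to knockout over control, were negatively related across all genes (r = -0.51 across 19707 genes, which are not independent). A difference tied to the genotype keeps its sign between the arrays and one tied to the dye changes it, while a ratio near 0 can take either sign by measurement error. Of the lists of kidney cell markers, every one of the 10 proximal tubule, 9 thick ascending limb, 7 distal convoluted tubule, 8 principal cell and 7 intercalated cell markers was above the limit on signal.

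Claudins are known to come in pore-forming and barrier-forming kinds, and each segment of the nephron has its own set. Claudin-2 and claudin-10 form pores in the proximal tubule, where salt and water are reabsorbed in bulk. In the thick ascending limb claudin-16 and claudin-19 are needed for the reabsorption of magnesium and calcium between the cells, and claudin-14 counteracts them. Claudin-4, claudin-7 and claudin-8 belong to the distal nephron and collecting duct, and claudin-11 is best known as the tight junction protein of myelin and of the Sertoli cell barrier in the testis.

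Each claudin was measured by the 60-base probes on which all its values rest. The probes of Cldn16 and Cldn19, the pair of thick ascending limb claudins linked to magnesium, and of Cldn14 are shown in full. Capitals mark the longest run of bases that the probe shares with a probe of any other gene on the array. All are given 5′ to 3′ as in the deposited files, whose positions are on the mm9 build. The Cldn16 probe lies at chr16:26474305-26474364 on the plus strand, the Cldn19 probe at chr4:118929768-118929827 on the plus strand, and the Cldn14 probe at chr16:93919671-93919730 on the minus strand.
Cldn16: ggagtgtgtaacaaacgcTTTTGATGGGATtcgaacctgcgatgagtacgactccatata
Cldn19: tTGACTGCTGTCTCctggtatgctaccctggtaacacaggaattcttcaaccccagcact
Cldn14: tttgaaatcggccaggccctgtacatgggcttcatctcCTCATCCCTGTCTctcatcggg

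The longest shared run was 12 bases for Cldn16 and 13 for Cldn19, in both cases with a gene that is no claudin. For Cldn14 it was 13 bases, shared with the probe of Cldn9, another claudin. Across the 12 claudin probes no shared run was longer than 16 bases. Only the probes of other genes were searched, not their transcripts, so whether a related transcript shares a probe's target was not tested.

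The Cldn11 probe carries the one large difference described below, and the first 30 of its bases are shown for that reason. It lies at chr3:31062922-31062981 on the plus strand and starts at base 1474 of its transcript. Capitals mark the hexamer AATAAA, the letters of the common polyadenylation signal.
Cldn11: atatgcAATAAAtaatagtacgaagattat

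Searched on the strand printed, these letters occurred in 12.6% of the 39429 probes of this length, and on either strand in 16.2%. Of the 12 claudin probes, those of Cldn11 and Cldn3 held them, and none held them on the other strand. The match is a description of the probe. Whether each probe lies in coding or untranslated sequence was not read from an annotation, since none of the mm9 build was used here.

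Cldn2 and Cldn4 were each measured by a pair of probes, and the first 30 bases of each probe are given because the probes of a pair disagreed on both arrays. Capitals mark C and G. The Cldn2 probes lie at chrX:136345244-136345303 (A_52_P251450) and chrX:136343889-136343948 (A_66_P122511) on the plus strand. The Cldn4 probes lie at chr5:135421347-135421406 (A_51_P356467) and chr5:135422135-135422194 (A_55_P2183453) on the minus strand.
Cldn2 A_52_P251450: aGtGtGGaaCatCtGtGaCCaaGGtGttGt
Cldn2 A_66_P122511: CCCaaaGCCaaGaGtGaGttCaaCtCataC
Cldn4 A_51_P356467: aCCCtaCtaatGaatttCtGtaGaGtGGat
Cldn4 A_55_P2183453: aCaaCGtCatCCGCGaCttCtaCaaCCCta

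Over its whole length the first Cldn2 probe has a GC content of 45% and the second 50%. The values for the Cldn4 probes, in the order printed, are 48.3% and 55%. The printed Cldn2 stretches hold equally many C and G, so the Cldn2 difference lies in the bases not printed. In both genes the probe richer in C and G read lower in the Cy5-labelled knockout than in its Cy3-labelled control, and the other probe read higher.

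Of the 10 claudins, Cldn11 read higher in the knockout kidney, with a mean log2 ratio of 2.68 ± 0.27 (SD of 2 arrays) from the processed signals. Its control was close to background, and the mean ran from 0.40 to 2.73 under other corrections of the signals. The other 9 genes moved little, and the means of their 11 probes lay between -0.07 and 0.28 on the log2 scale. To be counted as changed, a gene needed a mean of 1 or more on the log2 scale, up or down, and ratios of one sign on the 2 arrays. By this size rule 1 claudin was higher and 0 were lower, while among all 19707 genes past the limit on signal 62 were higher (0.315%) and 56 were lower (0.284%). The limit asked for a probe well above background, by the scanner software's call, in at least 1 genotype on each of the 2 arrays (the same one), and all 10 claudins passed it. The median log2 ratio over the 10 claudins was 0.10, beside -0.01 over all genes. It was 0.27 on array 1 and -0.06 on array 2.

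**Figure D1:**
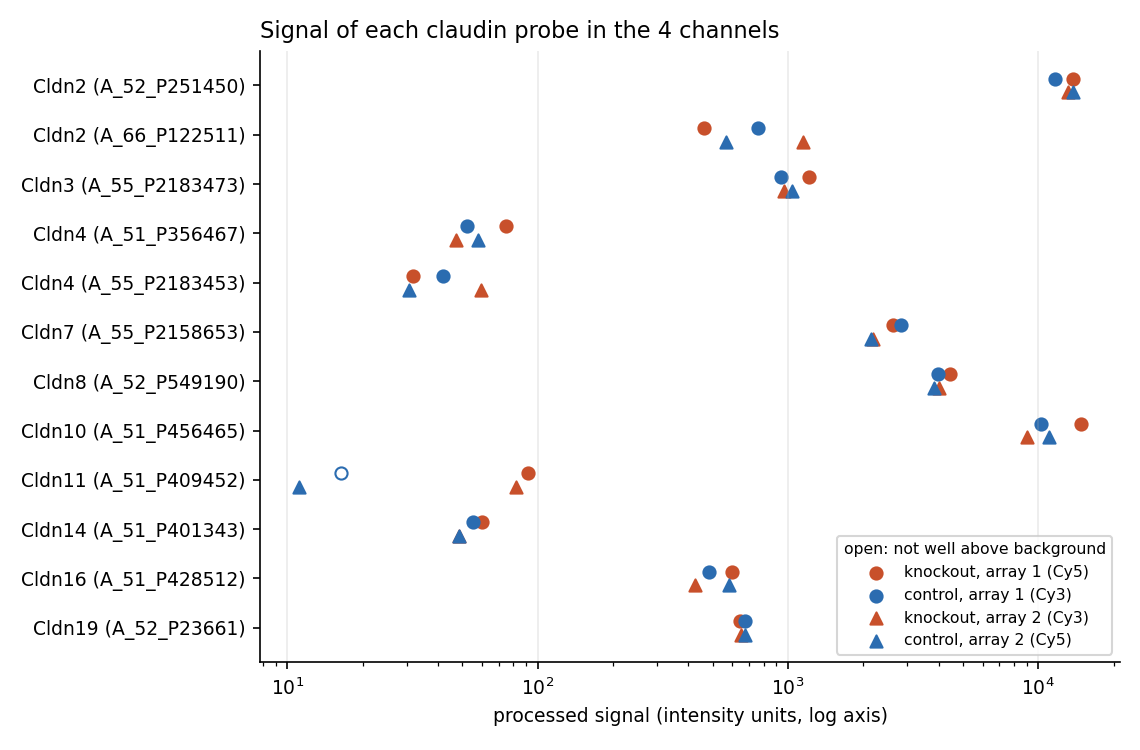
Processed signal (intensity units, log axis) of each claudin probe in the 4 channels, with knockout in orange, control in blue, circles for array 1 and triangles for array 2. Open symbols were not well above background. At Cldn11 the knockout channels read 91.7 and 81.7 against 16.4 and 11.2 in the control, and at the other probes the genotypes lie close together or change order between the arrays.

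Cldn11 was a dim probe. Its processed signal in the knockout was 91.7 on array 1 and 81.7 on array 2, and in the control 16.4 on array 1 and 11.2 on array 2. Both knockout channels were above both control channels, an order whose share over all probes was not counted. Its log2 ratios were 2.48 (array 1) and 2.87 (array 2), with errors from the scanner software of 0.34 and 0.37. The software called the probe well above background in both knockout channels but in only 1 of the 2 control channels, that of array 2.

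Before any correction the Cldn11 spot of the knockout read 182 over a local background of 43 on array 1, and 144 over 33 on array 2. The control spot read 69.7 over 33 on array 1 and 68.0 over 43 on array 2. The knockout spots were thus 4.24 and 4.37 times their local background, and the control spots 2.11 and 1.58 times. The size of the ratio differed between ways of processing the spots. With the software's own background-subtracted signals, a floor of 1 and each array centred on its median, the mean log2 ratio was 2.73. Those signals are not the spot readings above less their local background. With no background correction and loess normalization it was 1.11, and with normexp correction, an offset of 50 and loess it was 0.40, which is no longer past the size rule. Both arrays gave a higher knockout under each of these settings. Where all 4 channels had to be well above background, Cldn11 was left out and 0 of the remaining 9 claudins were counted as changed.

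Cldn11 passed the limit on signal through its knockout channels, so its place among all genes is given only in the plot of the arrays. Large ratios were more frequent among dim genes: with the genes split into 4 equal classes by mean log2 signal, the dimmest class, which holds Cldn11, Cldn4 and Cldn14, had 43 of 4927 genes higher by the size rule (0.873%), against 3 of 4927 in the brightest class (0.0609%).

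**Figure D2:**
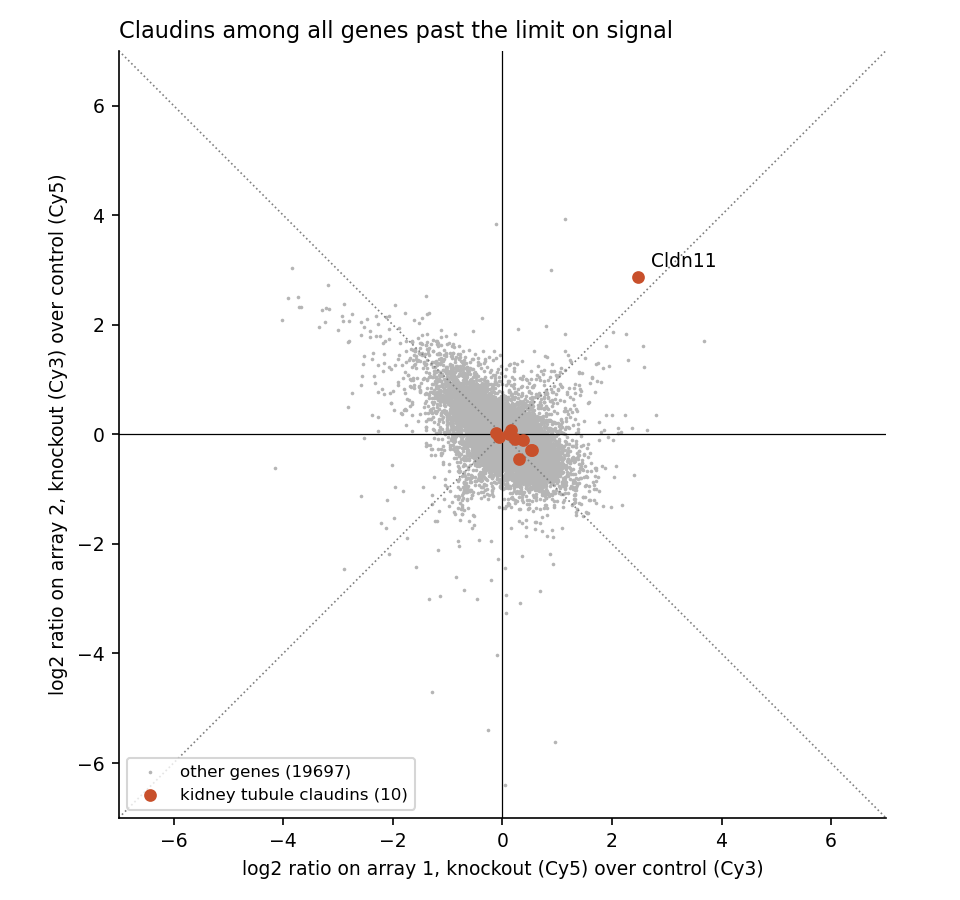
Log2 ratio of knockout over control on array 1 (horizontal) against array 2 (vertical) for the brightest probe of each of 19707 genes, with the 10 claudins in orange. Genes with equal ratios on the arrays lie on the rising dotted line and genes with opposite ratios on the falling one. Cldn11 lies at 2.48 and 2.87, apart from the other claudins near 0.

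As Cldn11 is best known from myelin, the myelin and peripheral nerve markers are set beside it. Of the 8 listed, 7 were above the limit on signal, 0 were counted as changed, and their log2 ratios lay between -0.19 and -0.02 with a median of -0.09. Their summed signal on array 1 came to 1804 for the knockout and 1790 for the control, and 1368 and 1571 on array 2. The part of myelinated nerve in the Cldn11 value was not tested.

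The markers of the urothelium, the lining of the renal pelvis, are also set beside Cldn11. The lowest mean log2 ratio of this list was that of Trp63 (0.03), with 0.34 on array 1 and -0.28 on array 2. All 6 were above background in the 4 channels, and 0 were past the size rule. The highest log2 ratios were those of Upk1b (0.87) and Upk3a (0.64), which encode uroplakins, and of Krt5 (0.62), a basal keratin. The median of the list was 0.54 and 5 of 6 had the same direction on both arrays. Their summed signal was 7094 in the knockout against 5442 in the control on array 1, and 5496 against 5543 on array 2. The part of urothelial cells in the Cldn11 value was not tested.

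The proximal tubule claudins had bright probes and small ratios. The brighter probe of Cldn2 read 13722 in the knockout and 11679 in the control on array 1, and 13106 and 13827 on array 2. The log2 ratios were 0.23 and -0.08, and their mean 0.08 ± 0.22 (SD of 2 arrays). The knockout was higher on one array and lower on the other, and the channels of the genotypes overlapped. The second Cldn2 probe moved by more and in the opposite order, from 463 in the knockout and 760 in the control on array 1 to 1150 and 567 on array 2. Its log2 ratios of -0.72 and 1.02 averaged to 0.15 ± 1.23, the widest spread of any claudin probe. On each array taken alone the probes of this gene pointed in opposite directions, while their means differed by less than the spread of the arrays.

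Cldn10 encodes the claudin that occurs as an anion pore in the proximal tubule and as a cation pore in the thick ascending limb. It read 14786 in the knockout and 10217 in the control on array 1, and 9061 and 11091 on array 2. The log2 ratio was 0.53 and then -0.29, with a mean of 0.12 ± 0.58. The channel labelled with Cy5 was the brighter on each array, whatever its genotype. The proximal tubule markers gave a like result, with 0 of 10 past the size rule and a median log2 ratio of -0.08.

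In the thick ascending limb set, Cldn16 and Cldn19, whose proteins form a joint pore complex, differed in how they behaved between the arrays but not in their means. Cldn16 read 597 in the knockout and 484 in the control on array 1, and 426 and 583 on array 2. Its log2 ratios of 0.30 and -0.45 gave a mean of -0.07 ± 0.54. Its knockout signal was above the control on the first array and below it on the second.

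Cldn19 was the most even of all the claudins. It read 644 in the knockout and 673 in the control on array 1, and 652 and 676 on array 2. The log2 ratios were -0.06 and -0.05, a mean of -0.06 ± 0.01. Both knockout channels lay below both control channels, but by less than 1 error of the software on either array, an error of 0.20. With background-subtracted signals the log2 ratios of Cldn19 were 0.08 on array 1 and -0.17 on array 2, so the sign was not kept.

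Cldn14, whose product counteracts the claudin-16 and claudin-19 pore, was dim and level. It read 60.1 in the knockout and 55.4 in the control on array 1, and 48.6 and 48.5 on array 2. The mean log2 ratio was 0.06 ± 0.08. Cldn3, a barrier claudin found in the thick ascending limb and more distal segments, read 1216 and 942 on array 1 and 967 and 1035 on array 2, in the same order. Its mean log2 ratio was 0.14 ± 0.33, with the knockout higher on array 1 only. The 9 markers of the thick ascending limb, among them the salt transporter gene Slc12a1, had a median log2 ratio of -0.15, and 0 of them were past the size rule.

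**Figure D3:**
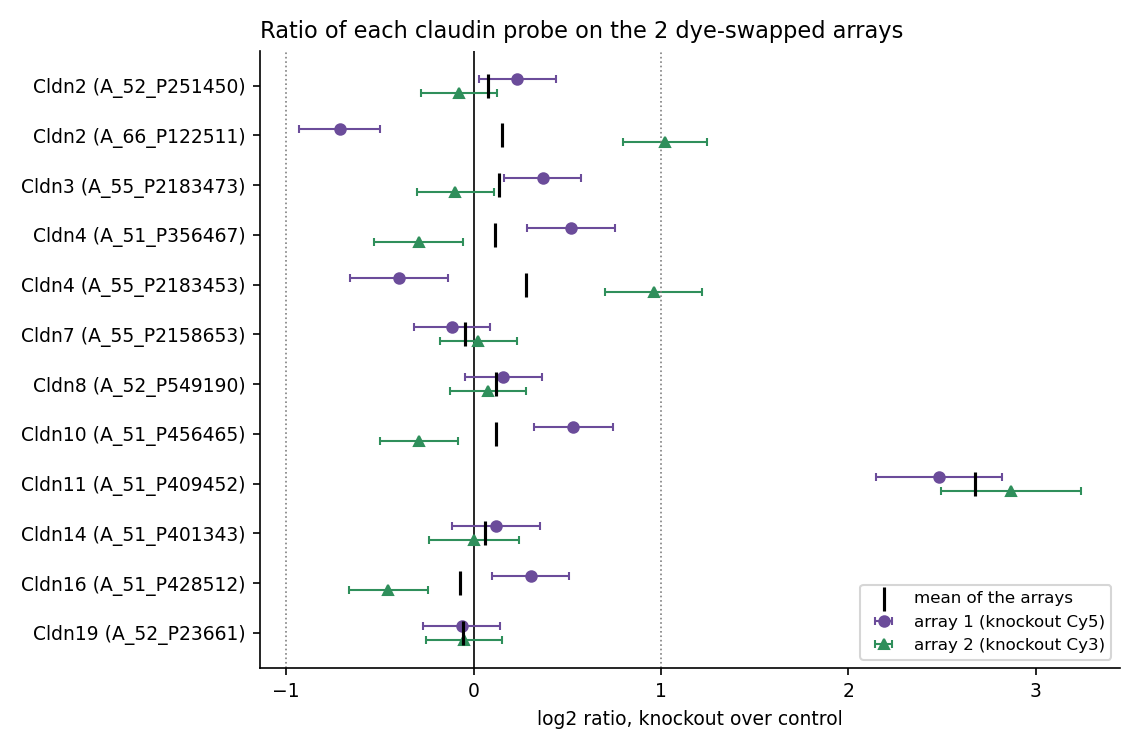
Log2 ratio of knockout over control of each claudin probe on array 1 (purple circles) and array 2 (green triangles), with bars of 1 error of the log ratio as given by the scanner software. Black ticks are the mean of the arrays and dotted lines mark a log2 ratio of 1 in size. The pairs of Cldn2 and of Cldn4 probes are mirrored, and Cldn11 alone is past 1 on both arrays.

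Among the claudins of the distal nephron and collecting duct, Cldn8, which encodes a barrier to cations, read 4451 in the knockout and 3986 in the control on array 1, and 4034 and 3827 on array 2. The log2 ratios were 0.16 and 0.08, a mean of 0.12 ± 0.06. Both knockout channels lay above both control channels, and within each array the difference was less than 1 error of the software, an error of 0.20. With background-subtracted signals the log2 ratios of Cldn8 were 0.34 on array 1 and -0.11 on array 2, so the sign was not kept.

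Cldn7, a claudin of the collecting duct that also lies along the lateral membrane, read 2620 and 2837 on array 1 and 2191 and 2152 on array 2, again knockout first. Its mean log2 ratio was -0.04 ± 0.10, and the arrays differed in sign. Another probe described on the arrays as claudin-7, listed under a transcript name and so outside the rule, had log2 ratios of 0.20 and 0.22 and was above background in 2 of 4 channels.

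Cldn4 encodes a partner of claudin-8 in the collecting duct. Its brighter probe read 74.9 in the knockout and 52.3 in the control on array 1, and 47.3 and 58.0 on array 2, which gave a mean log2 ratio of 0.11 ± 0.57. The second probe read 31.9 and 42.0 on array 1 and 59.4 and 30.5 on array 2. Its mean was 0.28 ± 0.96, the highest among the claudins other than Cldn11, from -0.40 on array 1 and 0.96 on array 2. As with Cldn2, each probe changed sign between the arrays and the probes were opposite to each other on both.

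The distal claudins can be read beside the markers of the segments they belong to. Of 7 distal convoluted tubule markers, 3 were lower in the knockout by the size rule: Pvalb (-1.75), a calcium-binding protein, Trpm6 (-1.40), the magnesium channel, and Calb1 (-1.01), another calcium-binding protein. The median of that list was -0.56, and its summed signal was 17836 in the knockout against 26865 in the control on array 1 and 15567 against 25289 on array 2. None of the 8 principal cell and 7 intercalated cell markers was past the size rule, with medians of -0.07 and -0.18. Cldn7 and Cldn8 had means of -0.04 and 0.12 beside these values. The part of the distal convoluted tubule in the claudin values was not tested. Of the thin limb markers, Akr1b3, the aldose reductase, was higher at 1.26.

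The direction of each ratio can be set against that of all probes on the arrays. Of the 12 claudin probes, 4 had the same direction on both arrays (Cldn8, Cldn11, Cldn14 and Cldn19), where 27.0% of the 24593 probes past the limit did so. Another 5 were higher in the knockout only when it carried Cy5 (background 37.6%), and 3 were higher only when it carried Cy3, against 35.4% of all probes. The mean exceeded the SD of the arrays for 3 of the 12 probes (Cldn8, Cldn11 and Cldn19), and for 20.1% of all. Within 2 software errors of 0 on both arrays were 6 of the 12, beside 63.2% of all probes, and for these a change of sign cannot be told apart from measurement error. The median size of the dye contrast, which is the log2 ratio of array 1 less the mean of the arrays, was 0.17 over the claudin genes and 0.21 over all genes.

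The dye contrast varied with base composition across all probes. Over 24593 probes its correlation with the number of T bases was 0.25 and with GC content -0.24, while the mean log2 ratio of the genotypes was related to GC content by -0.01 only. These correlations are descriptions across probes of the same arrays. The claudin probes did not all follow them: the probe of Cldn11, with a GC content of 35%, had a dye contrast of -0.19, and that of Cldn14, with 55%, had 0.06.

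The other members of the family and the partners of the junction give the setting. Of 16 other claudins on the arrays, 9 were past the limit on signal, and none was counted as changed in either direction. The highest were Cldn1 (0.26), Cldn25 (0.25) and Cldn23 (0.25), and the lowest Cldn22 (-0.34), Cldn20 (-0.28) and Cldn5 (-0.12), the endothelial claudin. Cldn1, the claudin of the skin barrier and of parietal cells in the glomerulus, had 1.26 on array 1 and -0.73 on array 2. The sign was shared by the arrays for 5 of these 9, against 27.7% of all genes.

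All 28 tight junction partners measured were past the limit, and again none was counted as changed. They include the scaffold proteins Tjp1 and Tjp3, which tie claudins to the actin skeleton, and occludin. The highest were Sympk (0.24), Jam3 (0.16), an adhesion molecule of the junction, and Marveld2 (0.14), the tricellulin of junctions where cells meet at corners. The lowest were Epcam (-0.34), which binds claudin-7, Wnk4 (-0.32), a kinase of salt handling, and Klhl3 (-0.32), an adaptor that targets WNK kinases and claudin-8 for degradation. Epcam and Klhl3 changed sign between the arrays, and Wnk4 was -0.53 and -0.11. The medians were 0.02 for the partners and 0.02 for the other claudins. The sign was shared by the arrays for 4 of the 28 partners, against 27.7% of all genes. Klhl3 is also on the list of distal convoluted tubule markers.

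**Figure D4:**
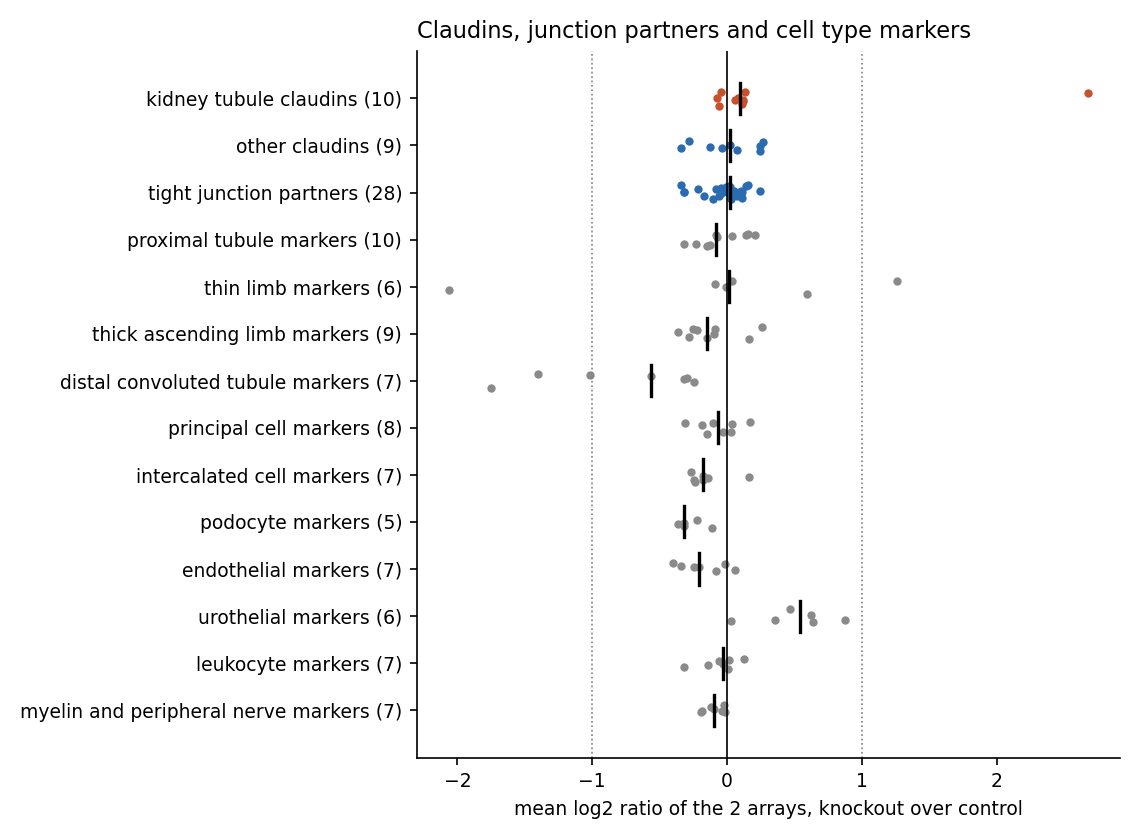
Mean log2 ratio of knockout over control for each gene of the claudin, junction partner and cell type marker lists, with the number of genes past the limit on signal in brackets and black bars for the list medians. Dotted lines mark a log2 ratio of 1 in size. Cldn11 stands at 2.68 with a control close to background, and its mean was 0.40 with normexp correction and loess. Its place among the genes shown is therefore not ranked. Of the distal convoluted tubule markers, 3 lie below -1.

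Several claudin genes lie side by side in the genome, and on the mm9 positions of the files none of the neighbours named here was counted as changed. The probes of Cldn4 (A_55_P2183453) and Cldn3 on chromosome 5 are 41088 bases apart, with mean log2 ratios of 0.28 and 0.14. The probe of Cldn13, 30577 bases from the other Cldn4 probe (A_51_P356467), was above background in none of the 4 channels. On chromosome 16 the probes of Cldn1 and Cldn16 are 116873 bases apart, with means of 0.26 and -0.07.

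**Figure D5:**
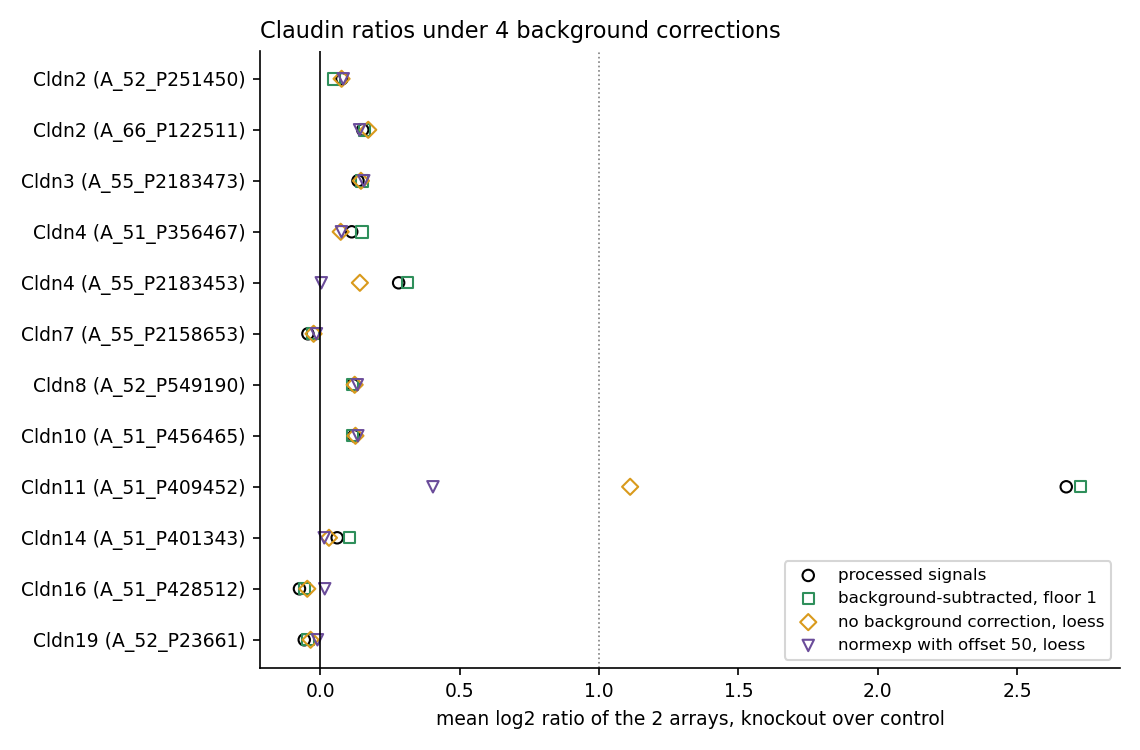
Mean log2 ratio of the 2 arrays, knockout over control, for each claudin probe from processed signals (circles), background-subtracted signals with a floor of 1 (squares), uncorrected signals with loess (diamonds) and normexp-corrected signals with an offset of 50 and loess (triangles). The dotted line marks a log2 ratio of 1. Cldn11 ran from 0.40 to 2.73, while the means of the other probes lay between -0.07 and 0.31.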

How the data were processed

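Total RNA of kidneys was hybridized by the authors to 2 whole-genome mouse oligonucleotide arrays of 2 colours with exchanged dyes. The deposited scanner output holds the mean and local background intensity of each spot, background-subtracted intensity, and a processed intensity that the software corrected for background, spatial trend and dye within each array, with flags for spots above background. The file headers name Agilent Feature Extraction 10.7.3.1, and the submitters' processing notes name 10.5.1.1. Also deposited were the red to green log10 ratio with its error, and a matrix of log10 ratios of knockout over control that lay within 0.00492 of the scanner's on array 1 and within 0.00483 on array 2. Positions are mm9.

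Processed intensity gave a log2 ratio per spot, turned to knockout over control by the dye labels. Control spots and marked outliers (141 and 175 of 43020 spots) were left out, spots of a probe were averaged, and a gene took its brightest probe. No spot was saturated. Between 62.6% and 68.0% of spots per channel were well above background. The claudins and the gene lists were chosen with earlier results of these data known. Every claudin is named with all its probes, as are Cnnm2, list genes past the size rule, and the 3 highest and 3 lowest of the other claudins and junction partners. Other genes named (Slc12a1, Tjp1, Tjp3, occludin, Cldn9, Cldn13, Trp63 and the 3 highest urothelial markers) were picked after their values were seen. Some list genes are not reported here. It is not stated whether both arrays carried the same RNA or how many mice gave it, and the same RNA was assumed for both. The number of arrays limits the precision.

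The alternatives were other background corrections (limma 3.58.1 in R 4.3.3), sources of the ratio, limits on signal, probe choices, single arrays, size rules, and 2 tests that treat the arrays as replicates. The counting was tested on simulated data. Python 3.11.15, pandas 2.3.3, numpy 2.4.6, scipy 1.17.1 and matplotlib 3.10.9 were used.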

Additional observations from a re-analysis of the deposited data

How the results depend on the processing

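Cldn11 was the claudin counted as higher, and 0 claudins were lower, under every alternative except those named here. With normexp correction, an offset of 50 and loess normalization, 0 claudins were higher (Cldn11 at 0.40), beside 7 genes higher and 8 lower among all. With no background correction and loess, Cldn11 was 1.11, and 12 genes were higher and 12 lower. Both settings change the background step and the normalization at once, and the cause was not tested. Where both genotypes had to be well above background, 0 claudins, 37 genes higher and 27 lower were counted. With no limit on signal 232 were higher and 179 lower. Array 1 alone gave 1096 higher and 633 lower, and array 2 alone 576 and 880. The contrast between the dyes, which holds no effect of genotype, gave 0 claudins, 143 genes up and 341 down, with Cldn11 at -0.19. A limit of 1.5-fold gave 197 and 209, and 2-fold on each array 28 and 20. The methods' t-test at their threshold gave 22 genes higher, Cldn11 among them, and 14 lower. After Benjamini-Hochberg adjustment it gave 0 claudins, 0 higher and 0 lower. Before adjustment 984 of 19707 genes, 2 of them claudins, were below the threshold of 0.1. limma gave 0 claudins, 0 higher and 0 lower, with 256 of 19707 genes, 1 of them a claudin, at an unadjusted p under 0.05. Both tests take the arrays for replicates. With background-subtracted signals 2 claudin probes, not 4, kept their sign between the arrays. The median over the claudins moved by less than the spread of the arrays under each alternative run. Dim signal limits the value of Cldn11, for which the control was near background. Each array holds both genotypes, so its ratios are paired within the array. No further replicate block could be fitted with 1 replicate per genotype.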
